A study of Homo sapiens with 34 samples.

Results

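The neural lineage genes PAX6, SOX1, NES, POU3F2, NEUROG2, DCX, STMN2, ELAVL3 and MIR9-2HG, were followed through cardiac differentiation of H1 human ESCs (embryonic stem cells). They were chosen by symbol from the 23189 genes of a table of raw read counts, and all 9 members were found. RNA was taken at days 0, 2, 6 and 10 from WT cells and from 3 lines in which lentiviral shRNAs lowered NKX2-5, ZEB2 and ZNF503. The WT cells were infected too, with an empty vector or with shRNA to GFP, and the cells of day 0 were undifferentiated, in Essential 8 medium. The later groups of every line were in the same medium without FGF2, TGFβ and insulin, with CHIR99021 (a GSK3β inhibitor) and then IWP2 (a WNT inhibitor), and only those of day 10 had received insulin again. Each targeted gene is represented by the 1 shRNA line with the strongest knockdown, so an effect of the line and an effect of the target cannot be told apart. The 15 groups hold 2 libraries each here. At day 10, replicates 3 and 4 of WT and ZEB2 shRNA cells were used, and ZNF503 shRNA cells were not analysed here.

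In the embryo, neural progenitors arise from ectoderm, whereas cardiomyocytes arise from mesoderm. PAX6 and SOX1 are transcription factors of early neuroectoderm, and NES encodes nestin, an intermediate filament protein of neural progenitors that immature muscle cells also make. NEUROG2 is a proneural transcription factor that commits progenitors to become neurons, and POU3F2 is a POU factor of neural progenitors and neurons. DCX encodes a protein bound to microtubules in migrating neurons, STMN2 a regulator of microtubules in growing axons, and ELAVL3 an RNA-binding protein of neurons. MIR9-2HG (LINC00461 in older annotation) is a long noncoding RNA that hosts miR-9, a microRNA known for promoting neurogenesis.

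The mature sequences of miR-9 are shown because the largest rise among the 9 genes was that of their host transcript. The MIR9-2 hairpin lies at chr5:88666853-88666939 on the minus strand (GRCh38.p14, RefSeq), and each sequence runs 5′ to 3′ with its seed, bases 2 to 8, in capitals.
hsa-miR-9-5p: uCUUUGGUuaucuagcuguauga
hsa-miR-9-3p: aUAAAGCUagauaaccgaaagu
The first maps to chr5:88666902-88666924 and the second to chr5:88666866-88666887. Their seeds differ, and in the RefSeq table of 2370 mature microRNA names each seed belongs to 1 name. Each seed occurs in 3 of the 2545 mature entries, so it is not particular to the MIR9-2 entry. The read counts are those of the long host transcript and give no measure of the mature microRNAs.

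The promoter windows of the members were searched for letters that 2 of the targeted factors are known to bind, since the lines differ in those factors. STMN2 and ELAVL3 had no window and were not searched. In the 250 bases before each RefSeq start site, CAGGTG or CACCTG (an E-box that ZEB proteins bind, both strands) occurred in 3 of 19 windows of 7 members, and in 17.5% of all 35116 windows. TNAAGTG or CACTTNA (letters that NKX2-5 binds, both strands) occurred in 1 of the 19 windows, and in 8.73% of all windows. The stretches of 30 bases around the matches follow (GRCh38.p14), with the matched letters in capitals.
PAX6, E-box, chr11:31800842-31800871 (minus strand): tggtttgatttgCAGGTGtcatcaataaac
SOX1, E-box, chr13:112067119-112067148 (plus strand): gcgcctggcttcccccgggCACCTGggacc
DCX, E-box, chrX:111411234-111411263 (minus strand): gagggggtggagCACCTGggggggaaaaaa
DCX, NKX2-5 letters, chrX:111412107-111412136 (minus strand): tgagtggggcttTTAAGTGattttcaagaa
The DCX E-box starts 105 bases before its start site and the NKX2-5 letters start 27 bases before another start site of DCX. These are matches of letters, and no binding was measured.

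In GRCh37, the build of the count table, PAX6 lies at chr11:31806327-31839509, SOX1 at chr13:112721463-112726020, NES at chr1:156638555-156647199, POU3F2 at chr6:99282450-99287334, NEUROG2 at chr4:113434672-113437336, DCX at chrX:110537007-110655657, ELAVL3 at chr19:11562141-11591861 and MIR9-2HG at chr5:87803363-87986874. Values are reads over the exons of 1 RefSeq row per gene. The 3′ end of PAX6 overlaps ELP4, which runs on the other strand from chr11:31531302 to chr11:31811872. ELP4 group means lay between 30.7 and 42.4 CPM (read counts relative to library size, scaled by TMM factors) at day 0, where PAX6 ranged from 0.173 to 16.8 CPM. The part of shared reads in PAX6 was not tested.

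Counts over 1 row per gene summed to 9189943 to 90814577 per library. A count of 3, taken as the limit of detection, was worth 0.033 to 0.326 CPM, and such limits cover counting error only. The targeted genes were lower in their own lines, with NKX2-5 at 1.30% ± 0.243 of WT at day 6, ZEB2 at 58.5% ± 1.83 and ZNF503 at 6.98% ± 0.297 (SD, n = 2). The summed level of 8 cardiomyocyte markers went in WT from 114 and 122 CPM at day 0 to 17422 and 14405 CPM at day 10. The replicates of NKX2-5 shRNA cells at day 10 stood apart from each other, with a chi-square per gene of 102 against 5.16 to 43.2 in the other 14 groups. Some log2 fold changes of members and named genes moved by more than 1.5 times, or crossed 5% FDR, when 1 library was left out. For a part of these, values without that library are given too.

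The 9 genes fell into 3 sets by level. NES was abundant in every library, between 47.0 and 322 CPM. PAX6, SOX1, DCX, STMN2 and MIR9-2HG reached a group mean of at least 1 CPM, each in a different set of groups. POU3F2, NEUROG2 and ELAVL3 never did. Levels per kilobase used the length of the canonical transcript in GENCODE annotation, which may differ from that of the RefSeq row counted. By group mean, the order of the protein-coding members in WT cells at day 0 was NES at 32.4 CPM per kilobase, STMN2 at 7.45, PAX6 at 1.64, SOX1 at 0.380 and DCX at 0.335. MIR9-2HG stood at 0.935 CPM per kilobase there. At day 10 in WT cells the order was NES at 55.5 CPM per kilobase, DCX at 3.20, PAX6 at 0.620 and STMN2 at 0.330.

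**Figure D1:**
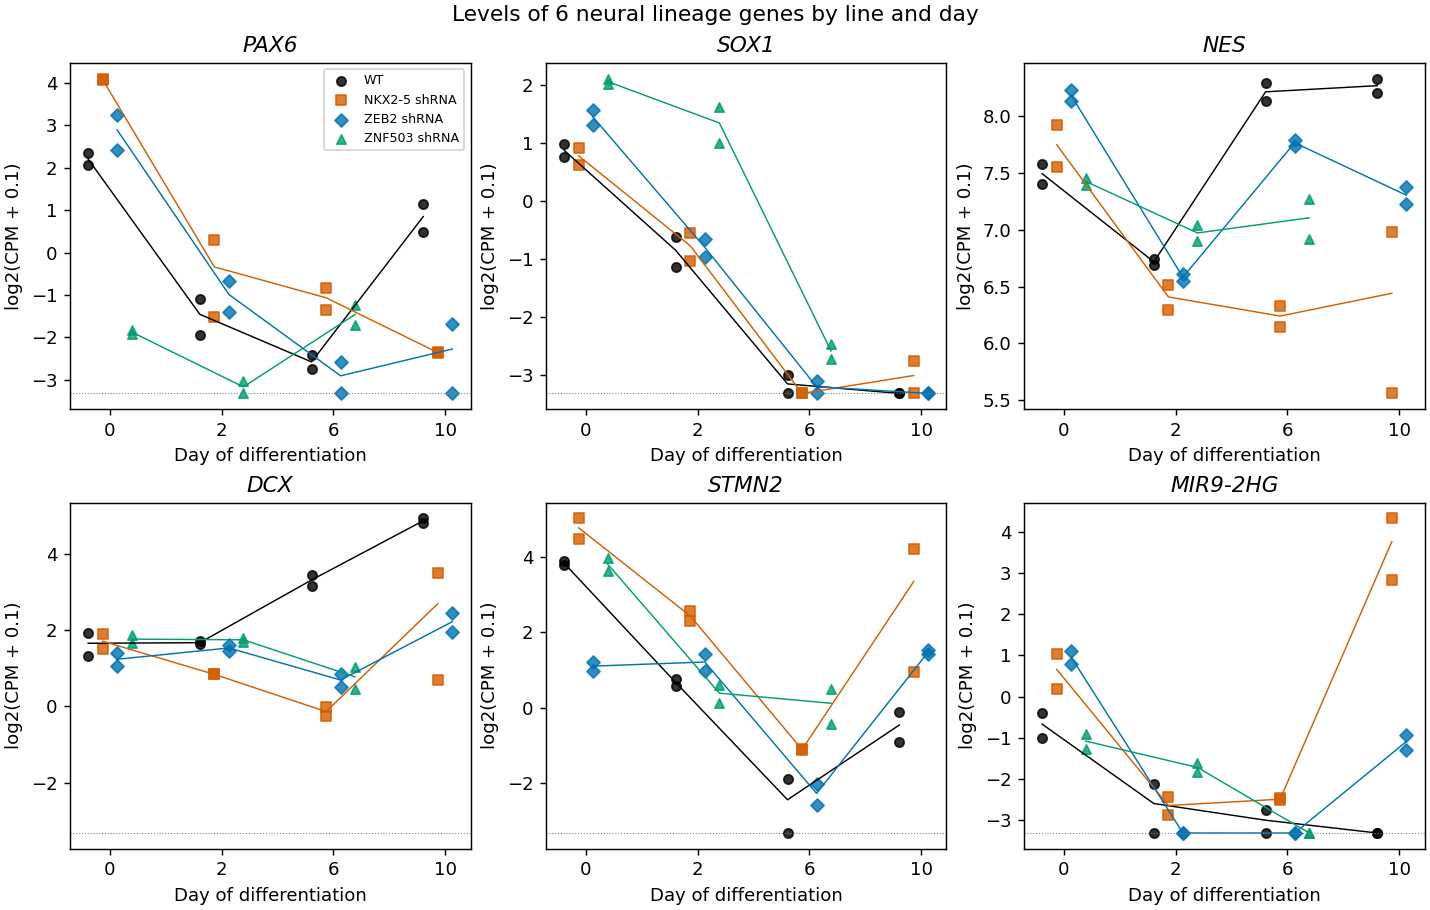
Levels of PAX6, SOX1, NES, DCX, STMN2 and MIR9-2HG, on a log2 scale of CPM plus 0.1, against the day of differentiation. Each point is 1 library, set slightly aside from its day by line, lines join the means of the 2 libraries of a group, and the dotted line marks 0 counts. NES stays high throughout, DCX climbs in WT cells to 27.8 and 30.3 CPM, and MIR9-2HG stands out in the 2 NKX2-5 shRNA libraries of day 10.

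NEUROG2, ELAVL3 and POU3F2 were at or near the limit of detection in most libraries. NEUROG2 had 8 counts in all 30 libraries together and at most 2 in any of them, and 26 libraries were at 0. ELAVL3 had at most 3 counts in 17 of 30 libraries and reached its highest value, 40 counts or 1.03 CPM, in 1 NKX2-5 shRNA library at day 0. Its other replicate there held 16 counts. After day 2, ELAVL3 passed 3 counts in 1 of 14 libraries, with 6 counts in ZEB2 shRNA cells at day 10. POU3F2 had at most 14 counts and 0.520 CPM, with 12 and 10 counts in the WT libraries of day 6, 0 and 0 in the WT libraries of day 10, and 12 and 4 counts in ZEB2 shRNA cells at day 10. NEUROG2 passed the filter on low counts in no fit, and POU3F2 and ELAVL3 passed it at day 0 and in the fit of all libraries, where neither passed 5% FDR. A count of 0 at this depth does not show that a gene was silent.

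**Figure D2:**
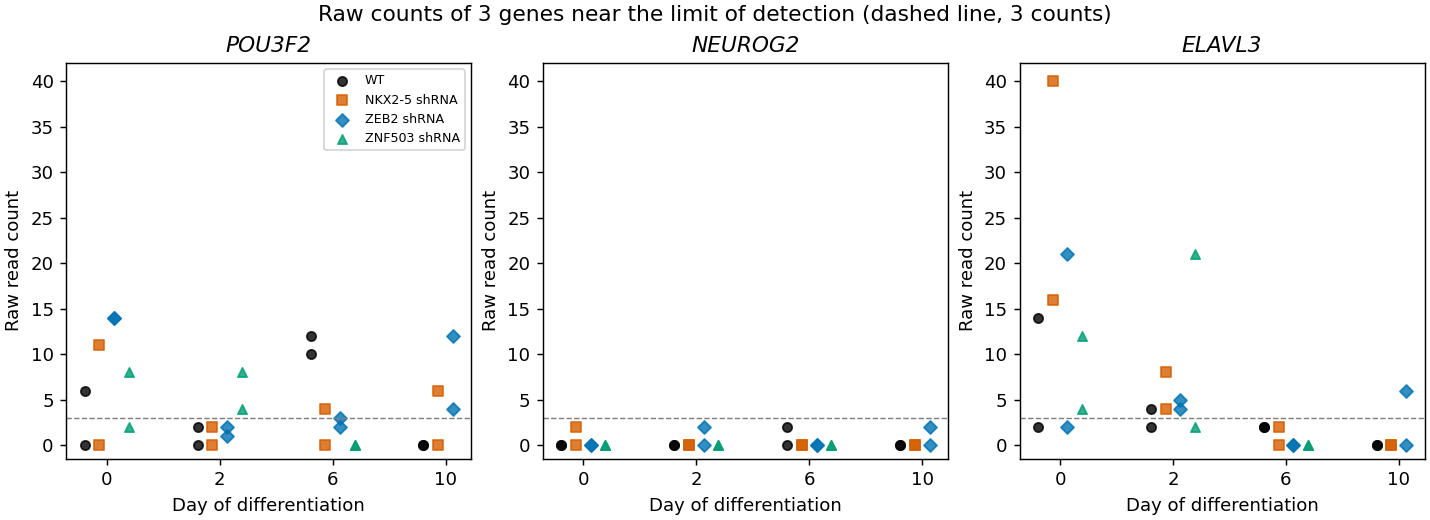
Raw read counts of POU3F2, NEUROG2 and ELAVL3 in each of the 30 libraries, against the day of differentiation, with a dashed line at 3 counts. All NEUROG2 points lie at or below 2 counts, and ELAVL3 lies above 3 counts mainly at days 0 and 2.

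In WT cells, the members took different courses toward the cardiac lineage. Genes were called at the thresholds the study used (10% FDR with a 2-fold change at day 0 or a 4-fold change at day 2, and 1% FDR with an 8-fold change later), and "rose" or "fell" is used at 5% FDR by edgeR's quasi-likelihood test with Benjamini-Hochberg adjustment. Against day 0, 3 of 6 tested members were called at day 2 (8.36% of all genes), 3 at day 6 (10.2%) and 3 at day 10 (15.5%). At 5% FDR it was 4 of 6 at day 2 (44.1% of all genes), 6 of 6 at day 6 (60.9%) and 6 of 6 at day 10 (73.8%). Most genes tested thus changed by days 6 and 10 too. Shares of all genes are shares of the genes that passed the filter on low counts.

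DCX was one of 2 members that rose over time in WT cells. Its libraries held 3.68 and 2.41 CPM at day 0, 3.15 and 3.00 at day 2, 10.8 and 8.88 at day 6, and 27.8 and 30.3 at day 10. The day 6 and day 10 libraries did not overlap with the earlier ones or with each other. The log2 fold change to day 6 was 1.71 (SE 0.23, adjusted p = 0.000119) and to day 10 it was 3.31 (SE 0.24, adjusted p = 7.13e-07), which was called. NES was at 191 and 169 CPM at day 0, 103 and 107 at day 2, 314 and 281 at day 6 and 322 and 296 at day 10. It fell to day 2 by 0.73 on the log2 scale (SE 0.11, adjusted p = 0.000422), and at day 10 it stood above day 0 by a log2 fold change of 0.84 (SE 0.11, adjusted p = 4.76e-05).

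PAX6 fell and returned in part in WT cells. It was at 4.96 and 4.06 CPM at day 0, 0.161 and 0.368 at day 2, 0.0867 and 0.0481 (2 counts each) at day 6, and 2.11 and 1.29 CPM at day 10. The fall to day 2 was -4.17 (log2, SE 0.48, adjusted p = 9.29e-05) and the rise from day 6 to day 10 was 4.76 (SE 0.61, adjusted p = 0.00012). From day 6 to day 10, 3 members rose at 5% FDR in WT cells, PAX6, DCX and STMN2. The STMN2 value of 2.67 missed 5% FDR in 1 fit of all libraries. With 1 library left out it ran from 2.01 to 7.12 and did not pass in every such fit. Of all genes tested, 57.5% passed 5% FDR in either direction, and 4863 of 17217 rose. The 2 day 10 libraries of PAX6 stayed below those of day 0, with a log2 fold change of -1.29 (SE 0.39, adjusted p = 0.0113). That value ran from -1.74 to -1.05 with 1 library left out and did not pass in every such fit.

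STMN2 and SOX1 were genes of day 0. STMN2 went from 13.7 and 14.6 CPM in WT cells at day 0 to 1.38 and 1.59 at day 2, to 0 and 0.168 at day 6, and to 0.825 and 0.430 at day 10. The log2 fold change to day 2 was -3.22 (SE 0.37, adjusted p = 8.87e-05) and to day 10 it was -4.32 (SE 0.43, adjusted p = 7.77e-06). SOX1 held 1.87 and 1.60 CPM at day 0, 0.354 and 0.552 at day 2, 0 and 0.0241 (1 count) at day 6, and 0 in both libraries of day 10. Its fall to day 10 was at least 7.26-fold, taking 3 counts per library as the limit (adjusted p = 0.000219). MIR9-2HG was low in WT cells, at 0.400 and 0.654 CPM at day 0, and was listed at 0 in both libraries of day 10. That is at least 2.21-fold lower (adjusted p = 0.0119).

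At day 0, before differentiation, the 3 shRNA lines already differed from WT in these genes, and each in its own way. Of the 8 members tested, 2 were called in each line, against 4.03% (NKX2-5 line), 2.2% (ZEB2 line) and 2.56% (ZNF503 line) of all genes. At 5% FDR, 3, 3 and 2 members passed, against 15.9%, 3.93% and 7.53% of all genes. The 3 lines were compared with the same 2 WT libraries.

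PAX6 had the widest range at day 0. It was at 17.0 and 16.6 CPM in NKX2-5 shRNA cells, at 5.27 and 9.38 in ZEB2 shRNA cells and at 0.180 and 0.166 CPM (8 and 12 counts) in ZNF503 shRNA cells. Against WT (4.96 and 4.06 CPM), it was higher in NKX2-5 shRNA cells by a log2 fold change of 1.88 (SE 0.24, adjusted p = 0.000675) and lower in ZNF503 shRNA cells by -4.71 (SE 0.36, adjusted p = 2.56e-05). The ZEB2 shRNA value of 0.67 (adjusted p = 0.152) did not pass.

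SOX1, by contrast, was highest in ZNF503 shRNA cells. It held 4.20 and 3.92 CPM there at day 0, a log2 fold change of 1.22 against WT (SE 0.24, adjusted p = 0.0129), and 1.44 and 1.79 CPM in NKX2-5 shRNA cells. The SOX1 value missed 5% FDR in 1 fit of all libraries and when any 1 of the WT or ZNF503 shRNA libraries was left out. Both SOX1 libraries of this line lay above WT, and both of its PAX6 libraries lay below.

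STMN2 was low in ZEB2 shRNA cells at day 0, at 1.88 and 2.22 CPM, against 32.4 and 22.1 CPM in NKX2-5 shRNA cells and 12.3 and 15.5 in ZNF503 shRNA cells. The log2 fold change against WT was -2.82 in ZEB2 shRNA cells (SE 0.21, adjusted p = 2.13e-05) and 0.92 in NKX2-5 shRNA cells (SE 0.18, adjusted p = 0.00687). MIR9-2HG was higher in both of these lines, at 2.07 and 1.62 CPM in ZEB2 shRNA cells and 1.03 and 1.93 in NKX2-5 shRNA cells. Its log2 fold changes were 1.78 (SE 0.40, adjusted p = 0.0301) and 1.49 (SE 0.41, adjusted p = 0.0301). Both MIR9-2HG values missed 5% FDR in 1 fit of all libraries and without either WT library. The ZEB2 shRNA value also missed it when any 1 of the ZEB2 or ZNF503 shRNA libraries was left out, and the NKX2-5 shRNA value, which ran from 0.94 to 1.89 with 1 library left out, also missed it without replicate 2 of that line. NES rose in ZEB2 shRNA cells alone among the lines at 5% FDR, to 300 and 282 CPM (0.66, SE 0.12, adjusted p = 0.0094). The difference between lines was not tested. This NES value and the STMN2 value of NKX2-5 shRNA cells missed 5% FDR in 1 fit of all libraries. Leaving out 1 library gave 0.58 to 0.75 for NES and 0.63 to 1.17 for STMN2. Neither of these values passed in every such fit. The day 0 libraries of DCX overlapped between each line and WT.

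At day 2, the mesendoderm stage, 5 members were tested. None was called in NKX2-5 shRNA cells (1.19% of all genes) or in ZEB2 shRNA cells (0.133%), and 2 were called in ZNF503 shRNA cells (2.8%). At 5% FDR the counts were 3 (26.7% of all genes), 0 (0.49%) and 2 (26.9%). By edgeR, 4 members had an unadjusted p below 0.05 in NKX2-5 shRNA cells. None had one in the ZEB2 line (0 of 5), and DESeq2 likewise called no member in either line.

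SOX1 remained high in ZNF503 shRNA cells at day 2, at 2.99 and 1.89 CPM, where WT cells held 0.354 and 0.552. This was a log2 fold change of 2.47 (SE 0.44, adjusted p = 0.000733). PAX6 had 2 counts and 0 counts in the same ZNF503 shRNA libraries and 5 and 6 counts in WT. The ratio of WT to ZNF503 shRNA was 12.9 (exact 95% counting interval 2.82 to 120, adjusted p = 0.0451). This PAX6 difference missed 5% FDR when any 1 of those 4 libraries was left out.

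STMN2 was higher in NKX2-5 shRNA cells at day 2, at 5.77 and 4.83 CPM against 1.38 and 1.59 in WT (log2 fold change 1.82, SE 0.29, adjusted p = 0.000523). DCX was lower in the same libraries, at 1.68 and 1.69 CPM against 3.15 and 3.00 (-0.91, SE 0.25, adjusted p = 0.0172). NES was lower too, at 78.2 and 91.4 CPM against 103 and 107 (-0.34, SE 0.11, adjusted p = 0.028). All of these STMN2, DCX and NES values missed 5% FDR in 1 fit of all libraries. Leaving out 1 library gave -0.94 to -0.87 for DCX and -0.49 to -0.21 for NES. Neither of these values passed in every such fit.

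At day 6, the cardiac progenitor stage, NES and DCX fell against WT in all 3 shRNA lines. Only NES, DCX and STMN2 passed the filter on low counts. One member was called in NKX2-5 shRNA cells (4.71% of all genes), 0 in the ZEB2 line (0.462%) and 1 in the ZNF503 line (3.91%). At 5% FDR, 2, 2 and 3 members passed in that order of lines, while 49.1%, 11% and 55.7% of all genes did. With 3 members tested, these counts do not set the members apart from all genes in the NKX2-5 and ZNF503 lines.

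DCX held 10.8 and 8.88 CPM in WT cells at day 6. It held 0.735 and 0.881 CPM in NKX2-5 shRNA cells, and the log2 fold change of -3.58 (SE 0.31, adjusted p = 1.48e-06) was called. In ZEB2 shRNA cells it held 1.70 and 1.33 CPM (-2.65, SE 0.30, adjusted p = 0.000112) and in ZNF503 shRNA cells 1.27 and 1.95 CPM (-2.597, SE 0.30, adjusted p = 1.83e-05). No shRNA library came near the WT libraries, and the 3 lines share those libraries as their reference.

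NES fell less. It was at 314 and 281 CPM in WT cells, 70.7 and 80.2 in NKX2-5 shRNA cells, 155 and 121 in ZNF503 shRNA cells and 222 and 214 in ZEB2 shRNA cells. The log2 fold changes were -1.99 (SE 0.14, adjusted p = 2e-07), -1.12 (SE 0.13, adjusted p = 2.2e-05) and -0.44 (SE 0.13, adjusted p = 0.0477) in that order. The NES value of ZEB2 shRNA cells missed 5% FDR with no TMM factors (adjusted p = 0.0635), without either ZEB2 shRNA library (0.184 and 0.241), without WT replicate 1 (0.247) and without either NKX2-5 shRNA library (0.0668 and 0.0672).

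Markers of cardiomyocytes went with DCX and NES only in part. The summed level of the 8 markers (TNNT2, MYH6, MYH7, MYL7, ACTN2, NPPA, RYR2 and NKX2-5) at day 6 was 10531 and 8434 CPM for WT, 4986 and 4471 for the ZEB2 line, 213 and 160 for the ZNF503 line and 40.8 and 49.8 for the NKX2-5 line. All 8 were called lower in NKX2-5 shRNA cells at day 10 (7.31% of all genes were called) and in ZNF503 shRNA cells at day 6 (3.91%). The part of these cells in the DCX and NES values was not tested. In bulk RNA, fewer cells of a type and less RNA per cell cannot be told apart. At day 6 the lines had the same order in NES as in the summed markers. DCX was about as low in ZEB2 shRNA cells, where the markers were high, as in ZNF503 shRNA cells, where they were low.

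**Figure D3:**
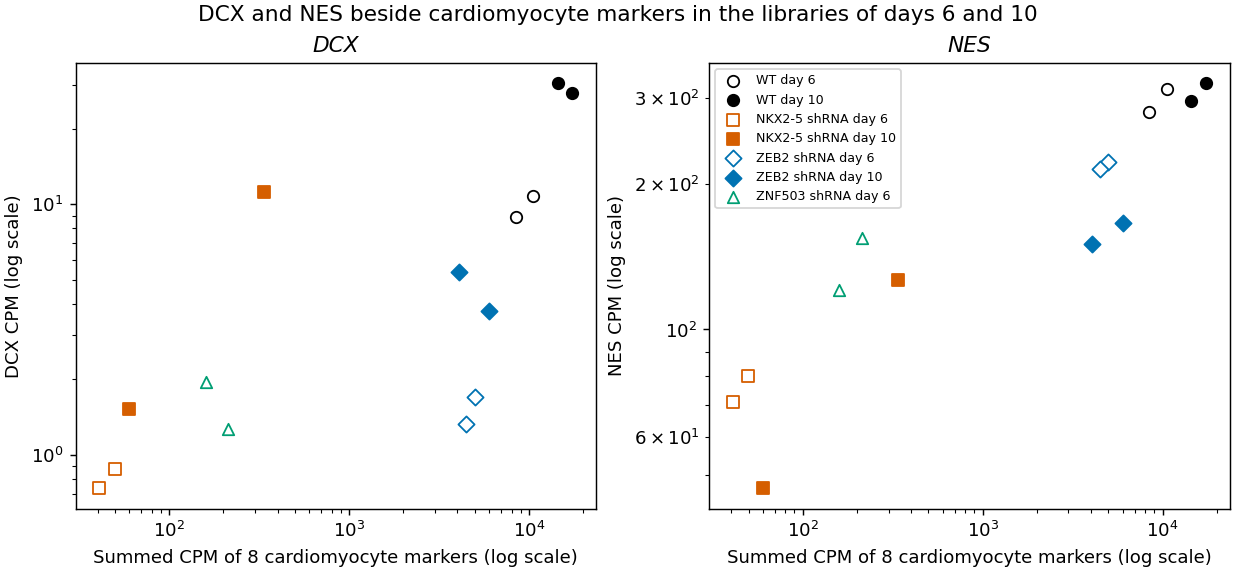
DCX (left) and NES (right), both in CPM on log axes, against the summed CPM of 8 cardiomyocyte markers on a log axis, in the 14 libraries of days 6 and 10. Open symbols are day 6 and filled symbols day 10. The 4 WT libraries lie furthest to the right in both panels, and the ZEB2 shRNA libraries of day 6 lie far to the right but low in DCX, at 1.70 and 1.33 CPM.

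STMN2 was the member that rose in ZNF503 shRNA cells at day 6, from a very low level. It had 26 and 16 counts there (1.32 and 0.648 CPM) against 0 and 7 counts in WT, and 10 and 18 counts in NKX2-5 shRNA cells. The log2 fold change was 3.18 in ZNF503 shRNA cells (SE 0.81, adjusted p = 0.0055), and the value depends on the 7 counts of 1 WT library, since it was 2.50 without WT replicate 1 and 7.92 without WT replicate 2. It missed 5% FDR without replicate 1 of the ZNF503 shRNA cells (adjusted p = 0.0653). SOX1 had at most 2 counts in all 8 libraries of day 6, those of ZNF503 shRNA cells included.

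At day 10, 5 members were tested against WT, and MIR9-2HG was called in NKX2-5 shRNA cells (7.31% of all genes were). No member was called in ZEB2 shRNA cells (1.46%). At 5% FDR, 5 members passed in NKX2-5 shRNA cells, 2 higher and 3 lower (43.9% of all genes), and 2 passed in ZEB2 shRNA cells, both lower (18.2%). By DESeq2, 2 members were called in the NKX2-5 line and 0 in the ZEB2 line, where 4 had an unadjusted p below 0.05 by edgeR.

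MIR9-2HG had 421 and 148 counts in NKX2-5 shRNA cells at day 10, or 20.1 and 6.99 CPM. It was listed at 0 in both WT libraries and had 10 counts in each ZEB2 shRNA library (0.309 and 0.427 CPM). Both NKX2-5 shRNA libraries thus lay above the other 28 libraries analysed here. Against WT the host transcript was at least 56.7-fold higher, taking 3 counts per library as the limit (adjusted p = 0.00126). Against ZEB2 shRNA cells it was higher by a log2 fold change of 5.21 (SE 0.69, adjusted p = 0.00658). Without replicate 1 of the NKX2-5 shRNA cells that MIR9-2HG value was 4.25, and without replicate 2 it was 5.79, both called. Leaving out WT replicate 3 or 4 ended the call against WT (adjusted p = 0.01497 and 0.01249, past 5% FDR but not 1%). Leaving out ZEB2 shRNA replicate 3 or 4 ended the call against ZEB2 shRNA cells (adjusted p = 0.06804 and 0.05325), as did leaving out a WT library (0.01691 and 0.0168). The RefSeq row used, NR_024384, had 1151 counts in the 30 libraries, and another row of the gene, NR_015436, had 64.

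Other members were low in the same libraries. NEUROG2 had at most 2 counts in every library of day 10, SOX1 at most 1, and PAX6 had 2 counts in each NKX2-5 shRNA library. PAX6 was lower in both lines, at 0.0954 and 0.0945 CPM in NKX2-5 shRNA cells and at 0 and 0.213 CPM in ZEB2 shRNA cells, against 2.11 and 1.29 in WT (41 and 12 counts). The log2 fold changes were -4.10 (SE 1.10, adjusted p = 0.0205) and -4.11 (SE 1.07, adjusted p = 0.0371). Neither passed 5% FDR when WT replicate 3 or 4 was left out, and the ZEB2 shRNA value also missed it without either ZEB2 shRNA library (adjusted p = 0.233 and 0.0705).

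STMN2 rose in NKX2-5 shRNA cells at day 10, but its 2 libraries disagreed. Replicate 1 held 1.81 CPM and replicate 2 held 18.4 CPM, against 0.825 and 0.430 in WT and 2.78 and 2.602 in ZEB2 shRNA cells. The log2 fold change against WT was 3.92 (SE 1.04, adjusted p = 0.0201). It was 4.75 without replicate 1 (adjusted p = 3.61e-05) and 1.44 without replicate 2 (adjusted p = 0.0573), and it also missed 5% FDR without WT replicate 3 or 4 (adjusted p = 0.108 and 0.126). In ZEB2 shRNA cells the value of 2.01 (SE 1.02, adjusted p = 0.212) did not pass.

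DCX and NES were lower than in WT again. DCX held 1.53 and 11.2 CPM in NKX2-5 shRNA cells and 3.74 and 5.38 in ZEB2 shRNA cells, against 27.8 and 30.3 in WT. The log2 fold changes were -2.19 (SE 0.74, adjusted p = 0.0469) and -2.68 (SE 0.76, adjusted p = 0.0484). For NKX2-5 shRNA cells it was -1.37 without replicate 1 and -4.23 without replicate 2. Both DCX values missed 5% FDR with no TMM factors (adjusted p = 0.0658 and 0.0674) and when any 1 of the WT or ZEB2 shRNA libraries was left out. NES held 47.0 and 127 CPM in NKX2-5 shRNA cells (-1.83, SE 0.41, adjusted p = 0.0103) and 166 and 150 CPM in ZEB2 shRNA cells (-0.97, SE 0.40, adjusted p = 0.133), against 322 and 296 in WT. The NES value of NKX2-5 shRNA cells missed 5% FDR without WT replicate 3 or 4 (adjusted p = 0.0635 and 0.0533). It was -1.28 without replicate 1 of the NKX2-5 shRNA cells (adjusted p = 0.000784) and -2.70 without replicate 2 (adjusted p = 1.2e-05). The ZEB2 shRNA cells were fitted together with these libraries and share their spread. Without replicate 1 or 2 of the NKX2-5 shRNA cells, the NES value of ZEB2 shRNA cells stayed at -0.97 and passed 5% FDR (adjusted p = 0.00125 and 0.00121), and that of STMN2 passed at 1.98 and 1.99 (adjusted p = 0.00434 and 0.0106).

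The same NKX2-5 shRNA library, replicate 2, was the higher one for STMN2, DCX and NES, and replicate 1 was the higher one for MIR9-2HG (20.1 against 6.99 CPM). Replicate 2 also held more of the cardiomyocyte markers, 338 CPM against 60.01 CPM in replicate 1. Their part in the difference was not tested.

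**Figure D4:**
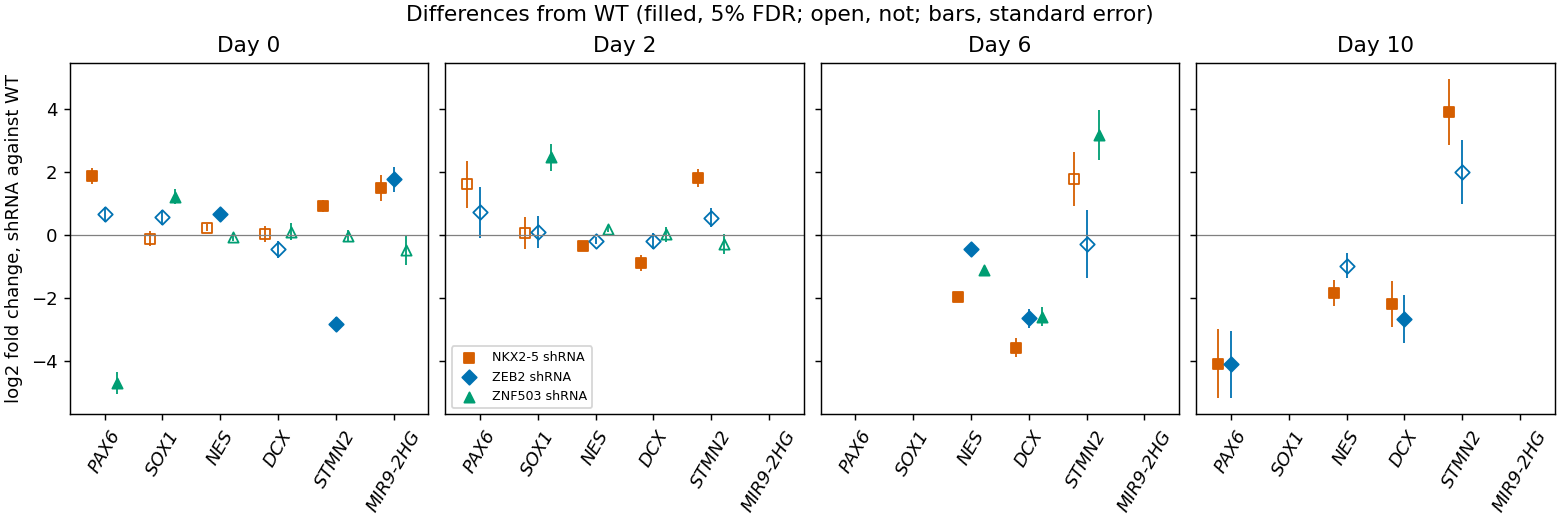
Log2 fold change against WT of the 6 better measured members in each shRNA line, with 1 panel per day and bars of 1 standard error. Filled symbols passed 5% FDR by edgeR, open symbols did not, and a value is left out where the gene was not tested or where 1 group had 3 or fewer counts in all. DCX and NES lie below 0 in each line shown at days 6 and 10, while PAX6 and STMN2 passed 5% FDR on both sides of 0 in different lines or days.

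Between the 2 lines at day 10, MIR9-2HG was the member that differed. It was called in NKX2-5 against ZEB2 shRNA cells (1.95% of all genes) and was alone among the 5 tested at 5% FDR (21.3% of all genes). DCX differed by 0.49 (log2, adjusted p = 0.661), and its sign turned with the library: it was 1.31 without replicate 1 (adjusted p = 0.012) and -1.55 without replicate 2 of the NKX2-5 shRNA cells (adjusted p = 0.00937). STMN2 differed by 1.91 (adjusted p = 0.161), by 2.77 without replicate 1 (adjusted p = 0.000683) and by -0.55 without replicate 2 (adjusted p = 0.401). NES differed by -0.32 without replicate 1 (adjusted p = 0.245) and by -1.73 without replicate 2 (adjusted p = 0.000214), so it passed 5% FDR in that fit.

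From day 6 to day 10, DCX and STMN2 rose in both shRNA lines as they did in WT. In NKX2-5 shRNA cells 3 members rose (49.1% of all genes passed 5% FDR in either direction, and 4260 of 17708 rose). They were MIR9-2HG at 7.33 (log2, SE 0.77, adjusted p = 0.000344), STMN2 at 4.74 (SE 1.00, adjusted p = 0.00604) and DCX at 2.92 (SE 0.81, adjusted p = 0.0186). Without replicate 1 of day 10 the DCX value was 3.76 (adjusted p = 1.43e-05), and without replicate 2 it was 0.88 (adjusted p = 0.0955). The STMN2 value was 5.64 and 2.29 in that order (adjusted p = 1.45e-06 and 0.00115). NES changed sign with the library left out, at 0.73 without replicate 1 (adjusted p = 0.00611) and -0.70 without replicate 2 (adjusted p = 0.0106). In ZEB2 shRNA cells 3 members rose and NES fell (63.3% of all genes in either direction, with 5738 of 17750 rising). STMN2 rose by 4.96 (SE 0.50, adjusted p = 1.68e-06) and DCX by 1.52 (SE 0.31, adjusted p = 0.00064). MIR9-2HG went from 0 counts in both libraries to 10 in each, at least 2.71-fold higher (adjusted p = 0.000849), and NES fell by 0.48 on the log2 scale (SE 0.09, adjusted p = 0.00052).

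The change from day 0 was compared between each line and WT by an interaction term in 1 fit of all 30 libraries. At 5% FDR, 5 of 8 members differed in NKX2-5 shRNA cells at day 10 (46.8% of all genes), 4 in ZEB2 shRNA cells at day 10 (23.4%), 2 in NKX2-5 shRNA cells at day 6 (33.1%) and 4 in ZNF503 shRNA cells at day 6 (30.8%). DCX and NES were among them in each of these comparisons. In ZEB2 shRNA cells at day 6 no member passed 5% FDR, while 720 of 18481 genes did. DCX was at -2.22 there (log2, adjusted p = 0.07285) and NES at -1.13 (adjusted p = 0.07292), so DCX and NES did not pass throughout. Both rose in WT cells from day 0 to days 6 and 10. In the lines the mean level of NES lay below that of day 0 each time. In the NKX2-5 line it went from 215 ± 38.5 CPM at day 0 to 75.5 ± 6.73 at day 6 and 86.7 ± 56.2 at day 10. It went from 291 ± 13.01 to 158 ± 11.3 at day 10 in the ZEB2 line and from 172 ± 5.29 to 138 ± 24.1 at day 6 in the ZNF503 line (SD, n = 2). DCX went from 3.17 ± 0.603 CPM to 0.808 ± 0.103 and 6.36 ± 6.84 in NKX2-5 shRNA cells, from 2.25 ± 0.407 to 4.56 ± 1.16 in the ZEB2 line and from 3.29 ± 0.364 to 1.61 ± 0.476 in the ZNF503 line at the same days. DCX thus lay above its day 0 mean at day 10, with widely spread libraries in NKX2-5 shRNA cells, and below it at day 6. Without replicate 1 or 2 of the NKX2-5 shRNA cells at day 10, the interaction of STMN2 there was 3.85 and 0.43, and it missed 5% FDR in the latter (adjusted p = 0.587).

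Other neural genes were read as 4 lists, 3 of genes of the neural lineage and 1 of miR-9 hosts and repressors. In NKX2-5 shRNA cells at day 10, 7.31% of all genes were called and 43.9% passed 5% FDR. Among 15 neural progenitor factors, 4 were tested in NKX2-5 shRNA cells at day 10, none was called and 2 fell at 5% FDR. The median log2 fold change of those 4 was -1.44, against 0.03 over all genes tested. The summed level of the 15 went in WT cells from 406 and 391 CPM at day 0 to 34.8 and 41.2 CPM at day 10, and it was 20.6 and 15.4 CPM in NKX2-5 shRNA cells and 39.98 and 47.1 in ZEB2 shRNA cells. SOX2, a factor of stem cells and neural progenitors, had at most 8 counts in any library of day 10. Of 10 proneural and early neuron factors, 5 were tested, of which 2 rose, 1 fell and none was called (median 0.70).

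Genes of neuron structure and synapse went both ways. Of 25 genes, 16 were tested in NKX2-5 shRNA cells at day 10, with 2 called higher and 3 lower (at 5% FDR 2 and 5), and a median of -0.94. Over all genes, 7.31% were called there and 43.9% passed 5% FDR. Without replicate 1 of the NKX2-5 shRNA cells 1 was called higher and 2 lower, and without replicate 2 it was 1 and 6. In ZEB2 shRNA cells 1 was called higher and none lower (at 5% FDR 3 and 4), with a median of -0.50 against 0.03 over all genes tested. Over all genes, 1.46% were called in that line and 18.2% passed 5% FDR. GAD1, which makes the neurotransmitter GABA, rose most, with 66.7 and 18.1 CPM in NKX2-5 shRNA cells and 120 and 110 CPM in ZEB2 shRNA cells against 5.05 and 5.16 in WT. Its log2 fold changes were 3.06 (SE 0.57, adjusted p = 0.00523) and 4.49 (SE 0.60, adjusted p = 0.00459). In NKX2-5 shRNA cells the GAD1 value was 1.83 without replicate 1, which ended the call, and 3.72 without replicate 2. NEFL, a neurofilament subunit, fell most in NKX2-5 shRNA cells, to 0.0954 and 0.189 CPM from 27.0 and 19.7 in WT (-7.30, SE 0.58, adjusted p = 0.000268).

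Of the miR-9 hosts and repressors of neuronal genes, 6 of 7 were matched and tested at day 10, and none was called in either line. In NKX2-5 shRNA cells 1 rose and 3 fell at 5% FDR (median -1.53), where 43.9% of all genes passed. REST, a repressor of neuronal genes outside the nervous system, was at 136 and 138 CPM in NKX2-5 shRNA cells against 250 and 239 in WT (-0.84, SE 0.18, adjusted p = 0.0088).

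Markers of other cell types that use some of these genes were read beside them. Among all genes, 7.31% were called in NKX2-5 shRNA cells at day 10 and 43.9% passed 5% FDR, while 1.46% were called in ZEB2 shRNA cells. Of 11 neural crest markers, 7 were tested in NKX2-5 shRNA cells at day 10, 2 were called lower and none higher, and 4 were at 0 in both libraries. At 5% FDR 2 were higher and 2 lower, and their summed level was 149 and 98.1 CPM against 81.8 and 87.4 in WT. In ZEB2 shRNA cells 2 were called higher and none lower. PAX7 fell most, to 0 and 2 counts from 60 and 46 in WT. Of 7 glial markers, 4 were tested and none was called, and of 6 neuroendocrine markers, 2 were tested and none was called. All 6 blood markers and 4 of 5 endoderm markers were called higher, and the summed endoderm level was 38942 and 27481 CPM against 3623 and 1437 in WT. Of 8 endothelial markers 4 were called higher, and of 6 surface epithelium markers 2, with CDH1 at 240 and 208 CPM against 27.8 and 10.97. The called genes with the largest rises in these lists were FOXA2 (log2 fold change 4.58), HBZ (5.86), PECAM1 (5.04) and CDH1 (3.52), and MYH6 had the largest fall among the cardiomyocyte markers (-7.36, or -6.42 without replicate 1 and -10.81 without replicate 2). No marker of smooth muscle and fibroblasts or of pluripotent cells was called. At 5% FDR, 3 of 6 smooth muscle and fibroblast markers rose and 1 fell, with a summed level of 2729 and 5042 CPM against 1756 and 1164 in WT, and 3 of 5 tested pluripotency markers rose and 1 fell, with 253 and 368 CPM against 141 and 117. Replicate 1, the one with more MIR9-2HG, held higher sums than replicate 2 for endoderm, epithelial, neural crest and glial markers, the last at 224 against 108 CPM. It was also higher for neural progenitor factors (20.6 against 15.4 CPM), proneural and early neuron factors (378 against 335) and miR-9 hosts and repressors (534 against 467). Neuron structure and synapse genes went the other way (197 against 273 CPM). So did blood, endothelial, cardiomyocyte, neuroendocrine, pluripotency, and smooth muscle and fibroblast markers. The part of any of these cell types in the MIR9-2HG counts was not tested.

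The members did not share 1 pattern. Over the 15 group means of log2(CPM + 1), Pearson's r between pairs of the 6 better measured members ran from -0.20 (DCX and SOX1) to 0.55 (STMN2 and SOX1), a description over groups that share lines and days. The genes most like each member among 17025 others were MT1HL1 (r = 0.94) and MT1JP (0.92) for PAX6, LOC100131496 (0.97) and MCOLN2 (0.97) for SOX1, and NECTIN3 (0.93) and HS3ST5 (0.92) for NES. For DCX they were TCEAL1 (0.92) and LAMA4 (0.91), for STMN2 TMEM161B-DT (0.92) and MAPK11 (0.89), and for MIR9-2HG IL1A (0.98) and CLCN1 (0.96). MIR9-2HG was far higher in NKX2-5 shRNA cells at day 10 than in the other 14 groups, so its r leans on that group.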

How the data were processed

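Libraries were made from total RNA with a stranded kit. The deposited values are raw read counts per RefSeq row, made by the authors with TopHat2 2.0.14 on hg19 (GRCh37), 1 best hit per read, and RSeQC counting (whether by strand is not given in the sources used here). Of low counts (1 to 20), 60.0% were even. Symbols matched 40285 of 41627 accessions (96.8%). Rows of a gene share reads, so the row with the largest total over 30 libraries was taken. The 4 columns of replicates 1 and 2 of day 10 (WT, ZEB2 shRNA) hold 42704 values that do not follow the accessions and were not used.

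edgeR 4.0.16 (R 4.3.3) gave TMM factors, filterByExpr and quasi-likelihood tests, with groups of 1 day, of 1 line or of all libraries in a fit, and was tested on simulated data. DESeq2 1.42.0, no TMM factors, no filter, 1 fit, the replicate block, the second row and leaving out each library were alternatives. Members, lists and tests were chosen with earlier results of these data known. Named genes were the 9 members, the 2 genes most like each, and the called genes of each list with the largest rise and fall in NKX2-5 shRNA cells at day 10. SOX2, REST and ELP4 were picked after their values were seen. The labels do not say that replicates came from separate cultures (the study calls them biological replicates), so p-values measure the spread between libraries, which may be technical.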

Additional observations from a re-analysis of the deposited data

Results flagged for a closer look

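For 15 results the change from day 0 in an shRNA line differed from that in WT by the interaction term of edgeR at 5% FDR, with 8 members tested in each of 8 comparisons. Values are log2 differences of the 2 changes. In NKX2-5 shRNA cells at day 10 they were 10.53 for MIR9-2HG (adjusted p = 4.71e-05), -6.08 for PAX6 (1.7e-05), -2.10 for NES (4.73e-05), -2.25 for DCX (0.00744) and 2.94 for STMN2 (0.0109). Without replicate 1 of NKX2-5 shRNA cells at day 10 the STMN2 value was 3.85, and without replicate 2 it was 0.43 (adjusted p = 0.587). The NES value was -1.49 and -3.005 in that order, and the DCX value -1.37 and -4.33, all past 5% FDR. The MIR9-2HG value depends on the prior count since WT cells at day 10 had 0 counts.

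In ZEB2 shRNA cells at day 10 the differences were -4.92 for PAX6 (adjusted p = 0.00041), 4.77 for STMN2 (0.000667), -1.66 for NES (0.00133) and -2.25 for DCX (0.0155). Leaving out 1 library gave -9.69 to -3.68 for PAX6 and -2.59 to -1.93 for DCX. The DCX value did not pass in every such fit. STMN2 stood at 1.88 and 2.22 CPM in this line at day 0, where WT held 13.7 and 14.6. In NKX2-5 shRNA cells at day 6 they were -3.64 for DCX (0.000337) and -2.24 for NES (3.73e-05). In ZNF503 shRNA cells at day 6 they were 6.75 for PAX6 (0.000173), 3.19 for STMN2 (0.0392), -2.70 for DCX (0.00446) and -1.04 for NES (0.027). The STMN2 value depended on single libraries, from 2.51 to 8.23 with 1 left out, and the NES value ran from -1.25 to -0.90. Neither the STMN2 nor the NES value passed in every such fit. PAX6 had 2 counts in each WT library of day 6, and ZNF503 shRNA cells had 8 and 12 counts at day 0 and 4 and 8 counts at day 6. At day 2 in any line, and at day 6 in ZEB2 shRNA cells, no member differed at 5% FDR. Groups held 2 libraries each, too few for a test of single outlying libraries.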

How the results depend on the processing

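Of 69 log2 fold changes of members past 5% FDR, none changed sign in 1216 refits, and 99 refits lost 5% FDR, touching 30 of the 69. Many of those refits left out a library of a group outside the comparison. Numbers of members called at the study's thresholds depended on the setting as follows. By DESeq2, 2 members were called in NKX2-5 shRNA cells at day 10 (1 by edgeR). In 1 fit of all libraries, 1 was called in NKX2-5 shRNA and 1 in ZEB2 shRNA cells at day 0, 0 in ZNF503 shRNA cells at day 6, 3 in NKX2-5 shRNA cells at day 10 and 1 in ZEB2 shRNA cells at day 10. At 5% FDR with no fold threshold, the counts were 3 in NKX2-5 shRNA cells at day 2, 2, 2 and 3 in NKX2-5, ZEB2 and ZNF503 shRNA cells at day 6, 5 and 2 in NKX2-5 and ZEB2 shRNA cells at day 10, and 6 and 6 in WT at days 6 and 10 against day 0. Leaving out 1 library at a time gave 1 to 2 in each line at day 0, 0 to 1 in NKX2-5 and 1 to 2 in ZNF503 shRNA cells at day 2, 0 to 1 in ZNF503 shRNA cells at day 6, 0 to 2 in NKX2-5 and 0 to 1 in ZEB2 shRNA cells at day 10, and 0 to 1 between those lines. The interaction of ZNF503 shRNA cells at day 6 gave 2 to 4 members at 5% FDR. No TMM factors, no filter and the second RefSeq row left these counts within 1.5 times. The cause of these changes was not tested.

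Replicate numbers did not pair the libraries: over 34 pairs the correlation of deviations ran from -0.129 to 0.118, with 2 over 0.1. With the replicate block, the count in ZNF503 shRNA cells at day 6 was 0 (1 without it), and NES in ZEB2 shRNA cells at day 6 missed 5% FDR (adjusted p = 0.05897). No other member past 5% FDR lost it with the block. With 2 libraries a group and floors of 0.033 to 0.326 CPM, depth limits POU3F2, NEUROG2 and ELAVL3, which most fits did not test.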
